A study of Drosophila melanogaster with 4 samples.

Results

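The peptidoglycan and glucan recognition proteins of whole adult female Drosophila melanogaster were compared between flies given juvenile hormone III (JH III), a sesquiterpenoid insect hormone, and flies given its solvent. Members were taken as every probe set whose platform annotation lists 1 gene symbol and whose symbol begins with PGRP- or GNBP. The rule found 9 genes of 10843 with such a probe set, represented by 10 of the array's 13966 probe sets. PGRP-LA had 2 probe sets and each of the other genes had 1. A further 4 probe sets that list a PGRP gene together with another gene were left out. The RefSeq gene table for the fly (assembly Release 6 plus ISO1 MT) holds 17 genes with such symbols. PGRP-SA, PGRP-SC1a, PGRP-SC1b, PGRP-SD, PGRP-LC, PGRP-LD, GNBP1 and GNBP-like3 were not analysed here, so that the central receptors of the Toll and Imd pathways, PGRP-SA and PGRP-LC, are outside these results.

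All flies were y,w females, a laboratory strain with mutations for body and eye colour, which went from a yeast diet to food without yeast within the hour after eclosion. They stayed on it for 5 days, a diet that the labels describe as lowering the flies' own hormone. Each fly was then chilled and given 0.1 µl on the body surface, either acetone alone or JH III at 187 mM in acetone (18.7 nmol per fly), and was frozen 12 hours later. Each group had 2 RNA samples from pools of 30 females, and each sample went on 1 Affymetrix DrosGenome1 array. The labels state the interest of the study as the effect of the hormone on antimicrobial peptides, whose expression the recognition proteins control. RNA came from whole bodies, so that a lower share of a cell type and less RNA per cell cannot be told apart.

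Insects sense bacteria through peptidoglycan, the polymer of the bacterial wall. Secreted and membrane-bound recognition proteins pass this signal to the Imd pathway, which responds mainly to the peptidoglycan of Gram-negative bacteria, or to the Toll pathway, which responds to Gram-positive bacteria and fungi. Some family members are amidases, enzymes that cut peptidoglycan and so remove the signal or attack the bacterium. Others bind the polymer without cutting it and act as receptors, and a few restrain or adjust the receptors. GNBP proteins resemble glucanases and include a sensor of the beta-glucans of fungal walls. Fat body, haemocytes and gut are the tissues best known for these genes.

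The 4 arrays were not alike. Pearson correlations across the 10474 probe sets tested were 0.728 to 0.737 for the pairs that include JH III replicate 1 and 0.835 to 0.863 for the other pairs. For the GAPDH control, the signal at the 3' end over that at the 5' end was 15.5 and 10.2 in the acetone arrays and 2.32 and 5.75 in the JH III arrays, and for the eIF-4a control 75.0 and 46.8 against 18.3 and 18.9. For the actin control it was 35.6 and 14.2 against 3.40 and 16.7, so that these groups overlapped. Acetone replicate 1 was hybridised on a different chip lot from the other 3 arrays. The deposited descriptions list instrument modules 1 and 2 for the acetone arrays and 3 and 4 for the JH III arrays. Sorted as text, the scan entries fall in the same order, so that neither can be told apart from the treatment. As a background level, the 95th percentile of the signals of 23 controls that were not spiked in was taken on each array. It was 139 and 295 in acetone and 369 and 240 with JH III. The yolk genes Yp1, Yp2 and Yp3 were above it on every array, and the male accessory gland genes Acp26Aa and Acp36DE on none. Of the marker lists, the summed signal of 7 fat body genes was 18413 and 16888 in acetone and 12361 and 15857 with JH III. The genes did not move together, as 3 of the 7 lay below the acetone level and the list's median difference was 0.24. That of 8 ovary genes was 18792 and 16219 against 19659 and 26295, with 1 of 8 below the acetone level. That of 8 haemocyte genes was 4669 and 6147 against 3785 and 3828, with the defining markers NimC1 and eater above the background level on no array.

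No recognition gene passed the test over the whole array. The test was limma on log2(signal + 83), two-sided, with Benjamini-Hochberg adjustment over the 10474 probe sets left after the dimmest 25% were set aside. Of the 10 members 7 were above this filter, and 0 of them were called (lowest limma adjusted p = 0.649), against 0.162% of all probe sets tested. The whole array gave 17 calls, 3 higher with JH III (0.0286%) and 14 lower (0.134%), and after quantile normalization or median centring 2 higher and 0 lower. At an unadjusted limma p under 0.05 stood 1 member, PGRP-SB1, on the lower side, where 3.75% of the probe sets tested stood too, and 3.54% on the higher side. By the methods' t-test, the test that the labels name for single genes, 0 members had an unadjusted p under 0.05. In 2 of the 10 probe sets every JH III value was below every acetone value (PGRP-SB1 and GNBP3), and in 2 every JH III value was above (GNBP2 and the dimmer PGRP-LA probe set). The same held for 13.4% and 23.7% of all probe sets, so that the members' shares are near the background. The median difference over the 9 genes, with 1 probe set each, was 0.03, and that of all probe sets tested was 0.10. The 9 include PGRP-SB2 and GNBP2, which fell below the filter and were above the acetone level, so that these medians cover unlike sets. The 4 genes below the acetone level, PGRP-SC2, PGRP-SB1, PGRP-LA and GNBP3 (-0.86 to -0.60), were all among the 7 tested. PGRP-LB, PGRP-LF and PGRP-LE were at 0.03 to 0.54. Of all probe sets tested 43.9% lay below the acetone level. A single gene measured on 2 arrays against 2 cannot reach an exact permutation p below 0.333.

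**Figure D1:**
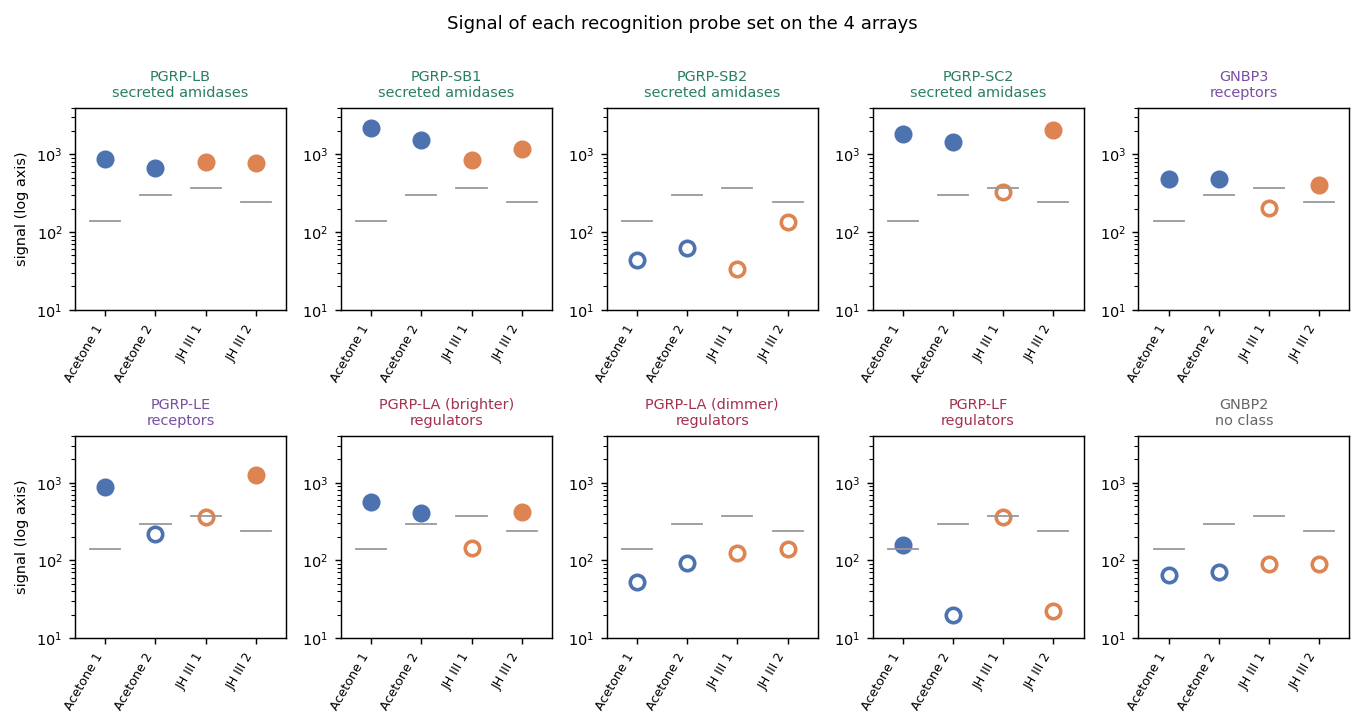
Signal (log axis) of the 10 recognition probe sets on the 2 acetone arrays (blue) and the 2 JH III arrays (orange), 1 panel per probe set. Filled points lie above the background level of their array (grey line) and open points do not; PGRP-SB1 and PGRP-LB are filled on all 4 arrays, and PGRP-SB2, GNBP2 and the dimmer PGRP-LA probe set on none.

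Most members were not above background on every array. Only PGRP-SB1 and PGRP-LB were above the background level on all 4 arrays, 5 probe sets were above it on 1 to 3 arrays, and 3 on none. The plot of signal by array shows this for each member.

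Of the secreted amidases, PGRP-SB1 had the lower signal with JH III, but the difference did not pass. PGRP-SB1 encodes a secreted amidase whose transcript is induced during infection. Its signal was 2191 and 1544 in the acetone arrays and 842 and 1172 in the JH III arrays. Every acetone value was above every JH III value, and the lowest came from JH III replicate 1. The means were 1868 ± 458 (SD) in the acetone group and 1007 ± 234 (SD) in the JH III group (n = 2 each), so that the JH III level was 53.9% of the acetone level. The log2 difference was -0.84 ± 0.39 (SE, limma unadjusted p = 0.0363, adjusted p = 0.649), with a 95% interval of -1.62 to -0.05. It stayed negative without JH III replicate 1 (-0.62) and with the chip lot as a block (-0.59, limma adjusted p = 1.00). Acetone replicate 1 is alone in its lot, so that this value is that of the other 3 arrays. The summed fat body and haemocyte signals and the GAPDH and eIF-4a ratios given above were also lower in each JH III array than in each acetone array. The actin ratio overlapped, 4 of the 7 fat body genes were above the acetone level, and 5 of the 8 haemocyte genes were below it. Their part in the difference was not tested.

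PGRP-SC2 was decided by 1 array. It encodes a secreted amidase of the gut, known for clearing the peptidoglycan of resident bacteria and so restraining Imd signalling there. Its signal was 1811 and 1438 in acetone, and 325 and 2051 with JH III. JH III replicate 1 was the lowest of the 4 arrays, under its background level, and JH III replicate 2 was the highest, so that the groups overlapped. The log2 difference was -0.86 ± 0.45 (SE, limma adjusted p = 0.710, 95% interval -1.76 to 0.04). This SE is mostly borrowed from other probe sets, and by the methods' t-test, on the gene's own arrays alone, it was 1.20. The difference was 0.33 without JH III replicate 1 and -2.06 without JH III replicate 2. The summed signal of 6 gut genes, among them trypsins and the maltase Mal-A1, was 181291 and 109017 in acetone and 73778 and 126403 with JH III, also lowest in JH III replicate 1. All 6 lay below the acetone level (median difference -0.65). Whether gut content plays a part was not tested.

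PGRP-LB varied little between the arrays. This amidase cuts the peptidoglycan of Gram-negative bacteria and limits the strength and length of the Imd response, and the gene makes both secreted and intracellular forms. Its signal was 877 and 664 in acetone, and 797 and 766 with JH III. Both JH III values lay between the acetone values. The log2 difference was 0.03 ± 0.45 (SE, limma adjusted p = 0.992). Its 95% interval of -0.88 to 0.94 corresponds to a ratio of 0.544 to 1.91 on the log2(signal + 83) scale, so that a change within these bounds was not detectable here. The sign depended on the scaling, with -0.06 after quantile normalization and -0.26 after median centring. Relative to the median of all probe sets tested the difference was -0.07, -0.07 and -0.11 under the 3 scalings.

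PGRP-SB2, an amidase by its sequence, was not measurable. It lies next to PGRP-SB1 in the RefSeq gene order of chromosome 3L, with 0 protein-coding genes between them. Its signal was 43.0 and 61.6 in acetone and 33.5 and 134 with JH III, below the background level on all 4 arrays. It fell below the filter, and no fold is given. The value of PGRP-SB1 could therefore not be compared with that of its neighbour.

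**Figure D2:**
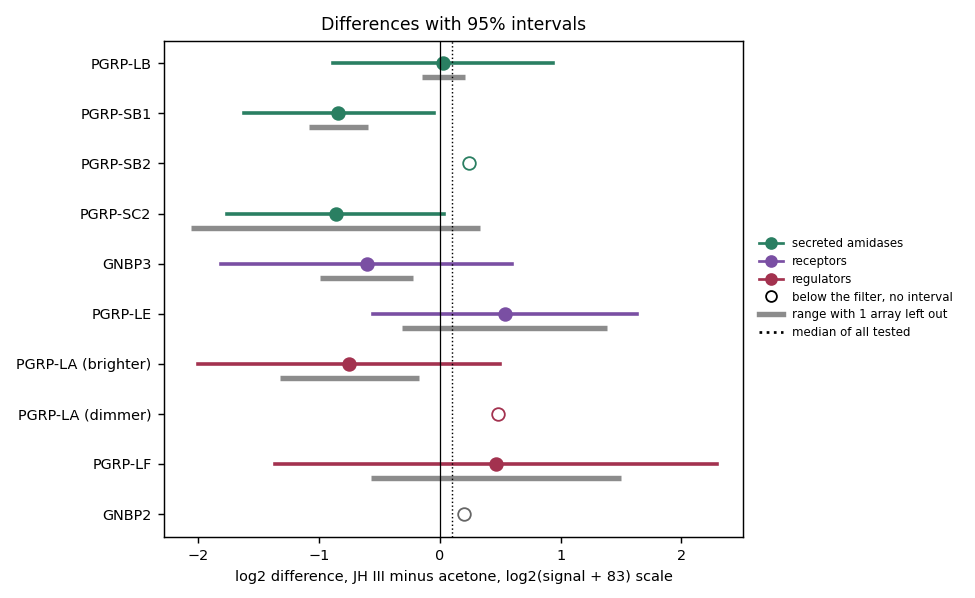
Log2 difference of each recognition probe set, JH III minus acetone, on the log2(signal + 83) scale, with the 95% limma interval (coloured line) and the range when each array is left out in turn (grey bar). Only the interval of PGRP-SB1 lies below 0, from -1.62 to -0.05, and the grey bars of PGRP-SC2, PGRP-LE, PGRP-LF and PGRP-LB cross 0; open points fell below the filter and have no interval.

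Of the receptors, 2 were measured, with differences of opposite sign. GNBP3, a secreted sensor of fungal beta-glucan at the head of the Toll pathway, had a signal of 488 and 485 in acetone and of 204 and 406 with JH III. The acetone arrays were nearly equal, and both JH III arrays were lower, replicate 1 being under its background level. The means were 487 ± 2.58 and 305 ± 143 (SD, n = 2 each). The log2 difference of -0.60 ± 0.60 (SE, 95% interval -1.81 to 0.60) did not pass (limma adjusted p = 0.851). Without JH III replicate 1 it was -0.22, and across 14 alternatives it ran from -0.99 to -0.22.

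The values of PGRP-LE overlapped between the groups. It is a receptor without a membrane anchor, known for sensing peptidoglycan fragments inside gut cells and passing the signal to Imd. Its signal was 885 and 216 in acetone and 367 and 1271 with JH III. Acetone replicate 1 and JH III replicate 2 were high and above background, and the remaining array of each group was not above it. JH III replicate 1, at 367, was just under its level of 369. The log2 difference was 0.54 ± 0.55 (SE, limma adjusted p = 0.852, 95% interval -0.55 to 1.63). It was -0.31 without acetone replicate 2, -0.26 without JH III replicate 2, and 1.38 with the chip lot as a block.

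The regulators also split. PGRP-LF, a membrane protein that binds the receptor PGRP-LC and restrains Imd signalling, had a signal of 156 and 19.8 in acetone and 362 and 22.6 with JH III. In each group replicate 1 was high and replicate 2 low. Acetone replicate 1 alone exceeded its background level, and JH III replicate 1 was just under its level of 369. The log2 difference of PGRP-LF was 0.47 ± 0.91 (SE, limma adjusted p = 0.930). The 95% interval of -1.36 to 2.29 was the widest limma interval among the 7 tested. The spread behind these intervals is mostly borrowed from other probe sets. By the methods' t-test, which uses a gene's own arrays alone, the SE was 1.20 for PGRP-LF. It was 1.20 for PGRP-SC2, 1.16 for PGRP-LE and 0.18 for PGRP-LB. The difference of PGRP-LF was -0.57 without JH III replicate 1, -0.14 without acetone replicate 2, and 1.08 with the chip lot as a block.

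The probe sets of PGRP-LA disagreed. PGRP-LA is a membrane-bound family member known for adjusting Imd signalling in gut and airway epithelia. Its brighter probe set had a signal of 566 and 413 in acetone and 144 and 420 with JH III. JH III replicate 1 was the low one, under its background level, and replicate 2 lay between the acetone arrays. The log2 difference was -0.75 ± 0.63 (SE, limma adjusted p = 0.825, 95% interval -2.00 to 0.50), and -0.17 without JH III replicate 1. The dimmer probe set had 53.4 and 92.9 in acetone and 126 and 140 with JH III, without overlap and in the opposite direction. All 4 of these values were below the background level, so that no fold is given. In the RefSeq gene order PGRP-LA and PGRP-LF flank PGRP-LC on chromosome 3L, with 1 protein-coding gene between them. In JH III replicate 1, with a background level of 369, neither the brighter PGRP-LA probe set (144) nor PGRP-LF (362) was above it. PGRP-LF was only just under it. The neighbours were therefore not compared there.

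GNBP2, a relative of GNBP3 with no settled role, had a signal of 65.7 and 70.4 in acetone and 90.3 and 90.5 with JH III. The groups did not overlap, but all 4 values were below the background level and the gene fell below the filter.

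**Figure D3:**
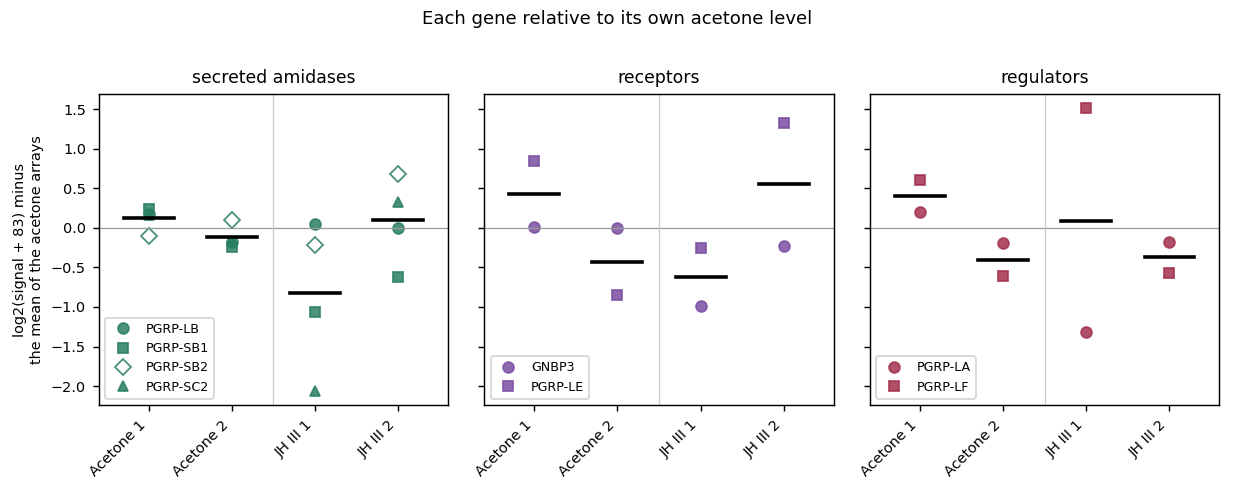
Values of each gene on the 4 arrays as log2(signal + 83) minus the mean of its acetone arrays, in 1 panel per class, with 1 probe set per gene, and black bars for the class mean. In every panel the class means of the JH III arrays overlap those of the acetone arrays, and PGRP-SC2 and PGRP-SB1 are the lowest amidases in JH III replicate 1.

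Set side by side, the classes did not separate the treatments. The mean log2 level of the 4 amidases was 9.73 and 9.49 in acetone and 8.79 and 9.71 with JH III, a difference of -0.36 that was 0.10 without JH III replicate 1. This mean includes PGRP-SB2, which was below background, and was -0.56 over the 3 amidases above the filter and -0.60 for all 4 after median centring. The mean of the 2 receptors was 9.54 and 8.69 in acetone and 8.49 and 9.67 with JH III, a difference of -0.03. For the 2 regulators it was 8.62 and 7.82 in acetone and 8.31 and 7.85 with JH III, a difference of -0.14. In each class the groups overlapped, and the pooled SD between replicates (0.47, 0.73 and 0.46) was larger than the difference. The amidase values of -0.56 and -0.60 are larger in size than 0.47, but that SD belongs to the 4-gene mean without median centring. No SD was computed for either value, so that neither can be set against its own replicate spread. Without JH III replicate 1 the receptors were at 0.56 and the regulators at -0.37. No test was made on these means. Of the 7 members tested, JH III replicate 1 was the lowest of the 4 arrays for 4 and the highest for 1, against 27.8% and 36.6% of all probe sets tested. Acetone replicate 1 was the lowest for 0 of the 7 and the highest for 4, against 31.4% and 18.9% of all.

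Downstream of the receptors, few genes of the Imd and Toll pathways passed. Of 19 measured Imd pathway genes 17 were tested, with 1 called higher and 0 lower, against 0.0286% and 0.134% of all probe sets tested. This list and the following ones were chosen with earlier results of these data known. Their counts are therefore not independent of those results, the 1 call included. The 1 call was Diedel, a secreted protein known to restrain Imd signalling, at least 27.4-fold higher with JH III (limma adjusted p = 7.7e-13). It passed in 12 of 14 alternatives, but not with eBayes without a trend or the methods' t-test (adjusted p 4.9e-27 to 0.802 over the 14). Next was pirk, which encodes an inhibitor of the PGRP receptors. Its signal was 51.7 and 76.2 in acetone, under the background level, and 320 and 392 with JH III, above it on 1 array (log2 difference 1.58 ± 0.80 SE, limma adjusted p = 0.694). Of 17 measured Toll pathway genes 15 were tested and 0 were called. At an unadjusted limma p under 0.05 stood 1 higher and 0 lower, against 3.54% and 3.75% of all probe sets tested. The smallest p values belonged to the transcription factor Dif (1.83 ± 0.90 SE, limma adjusted p = 0.675), above background on 1 JH III array only, and to SPE, the protease that activates the Toll ligand (-0.83 ± 0.43 SE, limma adjusted p = 0.710). The median differences were 0.01 for the Imd list and 0.16 for the Toll list, against 0.10 for all probe sets tested.

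Antimicrobial peptides, the output of both pathways, had values on 1 side. Of the 16 on the list 8 were measured, and all 8 lay below the acetone level (median difference -0.81), where 43.9% of all probe sets tested lay. An unadjusted limma p under 0.05 on the lower side was found for 4 of the 8, and for 3.75% of all. After adjustment over all probe sets 1 of the 8 was called lower, against 0.134% of all probe sets tested. It was the Imd-controlled diptericin DptB, with a JH III level at 27.7% of acetone (-1.82 ± 0.37 SE, limma adjusted p = 0.0135). DptB passed in 3 of 14 alternatives, those with another pseudocount or without acetone replicate 2, and its difference ran from -2.14 to -1.38 (adjusted p 0.00691 to 0.951). The GAPDH and eIF-4a ratios and the fat body and haemocyte sums were also lower in each JH III array than in each acetone array. The actin ratio and the gut sum overlapped. Below the acetone level lay 3 of 7 fat body genes, 5 of 8 haemocyte genes and 6 of 6 gut genes. Their part was not tested. Metchnikowin (Mtk) was at 42.6% of acetone (-1.23 ± 0.42 SE, limma adjusted p = 0.399). PGRP-SB1 was at 53.9%, and whether the members differ from the peptides was not tested.

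Other recognition and uptake receptors gave 0 calls. On the lower side 3.75% of all probe sets tested had an unadjusted limma p under 0.05. Of 20 measured genes of this list 12 were tested, and 2 had such a p, both lower. These were Tsf1, which is an iron carrier of the blood rather than a receptor (33.5% of acetone, -1.46 ± 0.37 SE, limma adjusted p = 0.0937), and the engulfment receptor drpr (59.7% of acetone, -0.74 ± 0.35 SE, limma adjusted p = 0.664). The median difference of the list was -0.05. The haemocyte receptors eater, NimC1, NimC3, NimC4 and Sr-CII were above background on no array.

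**Figure D4:**
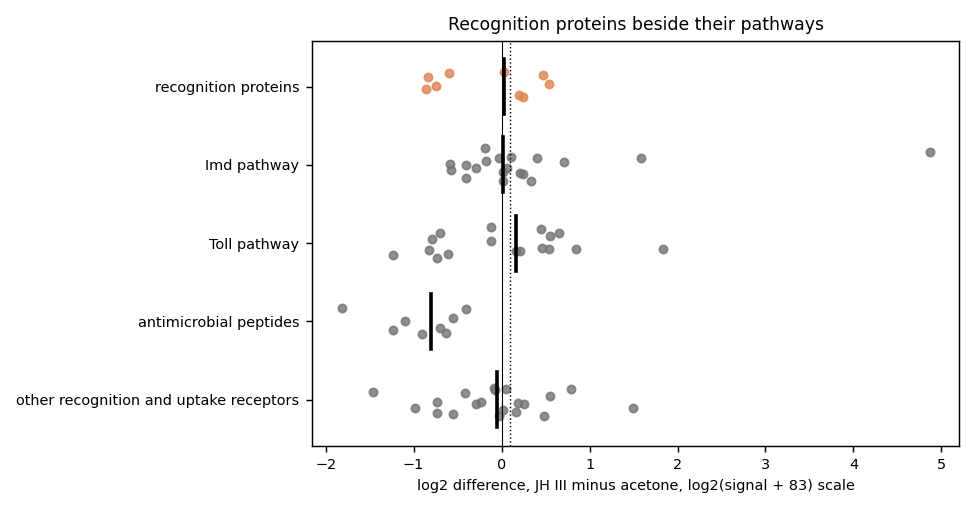
Log2 difference (JH III minus acetone, log2(signal + 83) scale) of the recognition genes (orange) and of 4 gene lists (grey), 1 point per gene, spread vertically at random for legibility, with the median of each list as a black bar and the median of all probe sets tested (0.10) as a dotted line. The recognition genes, among them PGRP-SB2 and GNBP2 from below the filter, spread over both sides of 0 around a median of 0.03. All 8 antimicrobial peptides lie below 0.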

How the data were processed

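The deposited table holds 1 linear intensity per probe set and array. The 2% trimmed means were 500.1 on every array, so that the authors had scaled them to a common value, and the sources used here do not give the summarising software. Trizol and chloroform served for RNA extraction and biotin as the label, per the labels' protocols. Of 14010 rows 44 were controls, and of the rest 12442 had 1 gene symbol, 327 several and 1197 none. Through Entrez numbers 12393 matched RefSeq, and 0 symbols changed.

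The deposited intensities were taken to the log2 scale as log2(signal + 83), 83 being the 25th percentile of all values. Differences are understated at low signal. Probe sets in the dimmest 25% by mean signal (under 125) were not tested. limma 3.58.1 in R 4.3.3 was used (lmFit, eBayes with a trend, 2 residual degrees of freedom, median 67.4 after moderation), so that most of the spread is borrowed from other probe sets. The number of arrays limits the precision. A fold given as "at least" compares a group above background on both its arrays with the background level, where the other group never reached it. For a gene with several probe sets the brightest entered class and list values. Chip lots came from the deposited description files. Named genes were all members and, in each of 4 lists, the 2 of smallest p. Members, classes and lists were chosen with earlier results of these data known. The fit was tried on simulated arrays with independent normal noise of the fitted size. These lack the differences between the real arrays, so that the trial cannot speak to their effect. Figures used Python 3.11.15 and matplotlib 3.10.9. Alternatives were pseudocounts of 1 and 256, quantile normalization, median centring, no filter or one of 50%, the methods' t-test, eBayes without a trend, the replicate number or chip lot as a block, averaged probe sets per gene, and each array left out. Replicate numbers come from the titles, which do not say that they mark a shared litter or day, and the samples were treated as unpaired.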

Additional observations from a re-analysis of the deposited data

How the results depend on the processing

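The count of recognition probe sets called was 0 under all 15 alternatives, the methods' t-test included. PGRP-SB1, GNBP3 and the brighter PGRP-LA probe set kept their negative sign in all 14 alternatives run for each (-1.13 to -0.59 for PGRP-SB1). Much of this was fixed in advance. The filters, eBayes without a trend, the t-test and the replicate block leave a difference unchanged. The chip lot block gives the same difference as leaving out acetone replicate 1. For PGRP-SB1 and GNBP3, whose groups do not overlap, no pseudocount and no single array left out could change the sign. Signs changed for PGRP-SC2 without JH III replicate 1 (0.33), for PGRP-LF without acetone replicate 2 (-0.14) or JH III replicate 1 (-0.57), and for PGRP-LE without acetone replicate 2 (-0.31) or JH III replicate 2 (-0.26). They changed for PGRP-LB after quantile normalization (-0.06), after median centring (-0.26) and without acetone replicate 2 (-0.15). The cause was not tested. The widest ranges with 1 array left out were -2.06 to 0.33 for PGRP-SC2, -0.57 to 1.50 for PGRP-LF and -0.31 to 1.38 for PGRP-LE, and that of PGRP-LB was -0.15 to 0.21. The amidases' mean was -0.56 with either filter, which leaves out PGRP-SB2 (the filter of 25% chosen after seeing the data), and -0.60 after median centring. The regulators' mean was -0.75 with a filter of 50%, which leaves PGRP-LA alone, and 0.17 with the probe sets of each gene averaged. Leaving out 1 array gave -0.82 to 0.10 for the amidases, -0.62 to 0.56 for the receptors and -0.54 to 0.26 for the regulators.

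The 17 calls of the whole array became 2 with quantile normalization, median centring, no filter, a filter of 50% or the replicate block, 4 with the chip lot as a block, and 3 to 36 with 1 array left out (3 without acetone replicate 1 or JH III replicate 1, 36 without acetone replicate 2). They became 0 with eBayes without a trend and with the methods' t-test, with 696 and 606 at an unadjusted p under 0.05. Median centring moved the median of all differences from 0.10 to -0.15. The replicate block changed no call among the recognition genes. Deviations of same-numbered arrays correlated at -0.11 across probe sets, and a crossed replicate block, chosen after seeing the data, gave 109 calls over the array and 0 among the members. Signal near background limits PGRP-SB2, GNBP2 and the dimmer PGRP-LA probe set, which were tested only without a filter (limma adjusted p = 0.921, 0.945 and 0.882).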
